A study of Mus musculus with 16 samples.

Results

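The genes described here carry out protein reabsorption in the proximal tubule of the kidney: the apical endocytic receptors Cubn, Lrp2 and Amn, the adaptor Dab2, the endosomal protease Napsa, and the brush border peptidases Mep1a, Mep1b, Anpep and Dpp4. They were chosen by name, as the probes whose platform gene symbol is one of these 9. Of the 9 genes, 8 were measured, by 10 of the 20355 probes on the array, and Anpep, the aminopeptidase N of the brush border, was not analysed here. Napsa and Lrp2 had 2 probes each and the others 1.

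Kidney RNA came from 4 male mice labelled MFP2-/-, aged 15 weeks, and from 1 pool of 5 wild-type males of the Swiss strain SWR/Ola Hsd, also aged 15 weeks. MFP2 is peroxisomal multifunctional protein 2, an enzyme of peroxisomal beta-oxidation encoded by Hsd17b4; the sources used here give neither the strain background of the mutants nor the form of their allele. Each mouse was hybridised against the pool on 4 two-channel arrays, 2 of each dye orientation (mutant RNA in Cy5 or in Cy3), so that 16 arrays give n = 4 mice, and how much wild-type animals vary is unknown. The values are log2 ratios per probe without intensities, so they hold no level of any gene, the presence of the tissue's defining markers cannot be read from them, and fewer tubule cells cannot be told apart from less RNA per cell. The direction, mutant over pool, is likely and not stated.

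Filtered plasma proteins that pass the glomerulus are taken up by cells of the proximal tubule. Megalin (Lrp2), a giant receptor of the LDL receptor family, and cubilin (Cubn), a peripheral membrane receptor for albumin, apolipoprotein A-I and the intrinsic factor complex of vitamin B12, bind them at the base of the microvilli. Cubilin has no membrane span of its own and is carried to the surface by amnionless (Amn), while the adaptor Dab2 links the tail of megalin to clathrin. Napsin A (Napsa) is an aspartic protease of endosomes and lysosomes in kidney and lung. Meprin alpha and beta (Mep1a, Mep1b) are zinc metalloproteases of the brush border, and Dpp4 is a serine dipeptidyl peptidase there.

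Promoter windows of 6 of the 8 measured members were searched, taken from the RefSeq promoter table (GRCm38.p6). Windows on a single chromosome were left out of the members' search. No window of Napsa or Mep1b was searched, so 6 does not count the members that the RefSeq table holds. The 250 bases before the annotated start are printed for Cubn and Mep1a, the members with an entry whose ratio was positive in every mouse, and for Dab2 and Dpp4, whose windows held a searched motif. Each runs 5′ to 3′ on the strand named, and capitals mark a motif.
Cubn, chr2:13491877-13492126, minus strand: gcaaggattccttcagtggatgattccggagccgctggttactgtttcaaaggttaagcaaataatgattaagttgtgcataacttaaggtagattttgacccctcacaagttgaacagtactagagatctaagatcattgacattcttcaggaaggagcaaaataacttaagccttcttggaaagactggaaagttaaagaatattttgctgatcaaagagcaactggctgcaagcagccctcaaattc
Mep1a, chr17:43502774-43503023, minus strand: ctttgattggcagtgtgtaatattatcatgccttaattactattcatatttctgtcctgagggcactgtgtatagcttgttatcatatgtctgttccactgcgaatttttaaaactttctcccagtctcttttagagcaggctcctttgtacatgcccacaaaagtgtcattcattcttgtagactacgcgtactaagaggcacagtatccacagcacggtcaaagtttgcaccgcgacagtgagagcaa
Dab2, the second of 2 annotated starts, chr15:6386498-6386747, plus strand: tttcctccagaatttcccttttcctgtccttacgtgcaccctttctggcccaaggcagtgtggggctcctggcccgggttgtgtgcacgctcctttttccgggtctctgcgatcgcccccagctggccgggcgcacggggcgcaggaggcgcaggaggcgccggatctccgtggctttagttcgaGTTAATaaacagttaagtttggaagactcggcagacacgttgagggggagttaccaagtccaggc
Dpp4, chr2:62412232-62412481, minus strand: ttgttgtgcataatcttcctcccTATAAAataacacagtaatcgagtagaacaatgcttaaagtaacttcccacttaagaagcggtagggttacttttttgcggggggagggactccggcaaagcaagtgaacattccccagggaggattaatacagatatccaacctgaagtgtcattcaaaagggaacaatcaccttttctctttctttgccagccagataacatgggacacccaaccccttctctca
The motifs searched on both strands were AGGTCA, the half-site of many nuclear receptors, GTTAAT, a half-site of HNF1, CAAAGTCCA, a core of HNF4 sites, and TATAAA, the TATA box. No pair of matches overlapped. Among the searched windows of these 6 members there were 2 matches: GTTAAT in Dab2, with its first base at -65 from the annotated start, and TATAAA in Dpp4, with its first base at -227. Over all 32851 promoter windows of that length, those of the omitted chromosome included, 14.0% held AGGTCA, 6.43% GTTAAT, 0.384% CAAAGTCCA and 12.4% TATAAA. The Cubn and Mep1a windows held none of these motifs. GC content was 39.6% for Cubn, 41.6% for Mep1a, 43.6% for Dpp4, 36.8% and 60% for the starts of Dab2, 61.2% for Amn and 66.4% for Lrp2.

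The targeted gene was read first. Hsd17b4 had 2 probes of opposite mean, -0.91 ± 0.80 (SD, n = 4) for probe 4590 and 0.43 ± 0.34 for probe 1446. Probe 4590 was -1.69 and -1.50 in mice 1 and 2 but -0.10 and -0.34 in mice 3 and 4, and probe 1446 was 0.02, 0.83, 0.34 and 0.52, so neither probe checks the genotype of every mouse. "Mutant" below means a mouse labelled MFP2-/-.

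The first comparison set the kidneys labelled MFP2-/- against the wild-type pool. In mean log2 ratio, 4 of the 8 genes stood between 0.24 and 0.34 (Mep1b, Napsa, Mep1a and Cubn) and the other 4 between -0.09 and 0.02 (Lrp2, Amn, Dab2 and Dpp4). No member passed limma's test with Benjamini-Hochberg adjustment at 0.05 (0 of 8; 0% of 16140 rows did), and the smallest adjusted p among them was 0.548. At an unadjusted p under 0.05, 3 members were higher (Cubn, Napsa and Mep1a), where 5.83% of all rows were, and 0 were lower, where 3.21% were. The same 3 genes were positive in every mouse, as were 10.2% of all rows; 0 members were negative in every mouse, as were 9.41%. The members' median was 0.13, against 0.00 over all rows tested. When all 16 arrays were fitted and the mouse was a random block, 2 members were called, Napsa with an adjusted p of 0.00644 and Cubn with 0.0448, among 221 rows. The estimated correlation within a mouse was 0.04 there, so arrays of 1 mouse counted almost as separate samples.

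**Figure D1:**
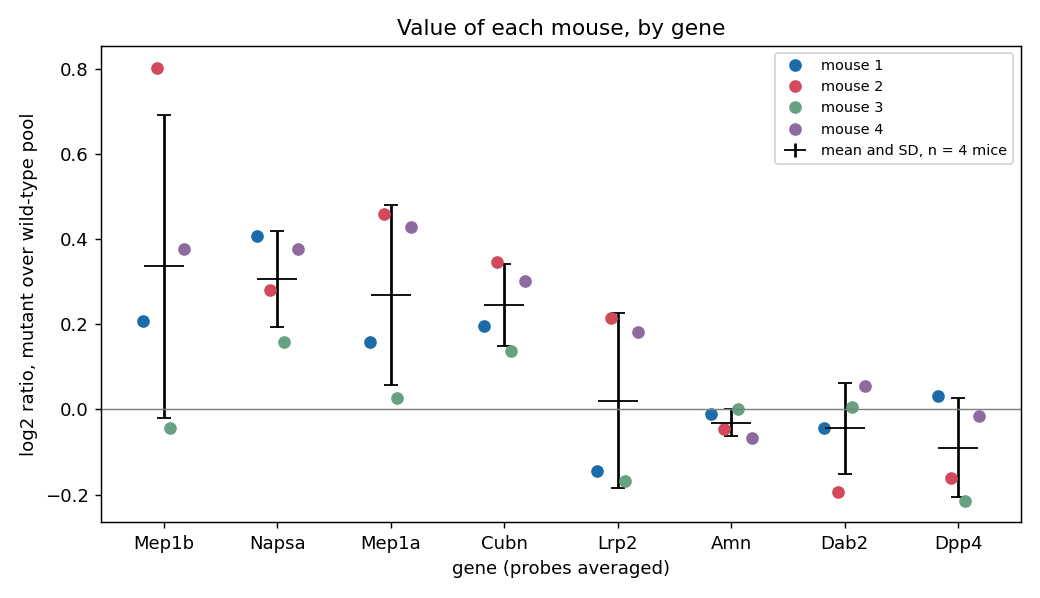
The log2 ratio of mutant over wild-type pool (vertical axis) is plotted for each gene, with 1 point per mouse and a bar for the mean and SD over 4 mice. Cubn, Napsa and Mep1a lie above 0 in all 4 mice, Mep1b in 3 of 4, and the other 4 genes have mice on both sides of 0.

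Among the receptors, cubilin was the higher one. In mice 1 to 4, the log2 ratio of Cubn was 0.20, 0.35, 0.14 and 0.30. All 4 mice lay above 0, as did 14 of 16 arrays, which ran from -0.04 to 0.59 with a median of 0.23. The mean was 0.24 ± 0.10 (SD, n = 4), a ratio of 1.18, with a 95% interval of 0.09 to 0.40 (limma, unadjusted p = 0.00854, adjusted p = 0.548).

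Megalin, the partner of cubilin at the same membrane, split the mice. Lrp2 had -0.14, 0.21, -0.17 and 0.18 in mice 1 to 4, with mice 2 and 4 above 0 and mice 1 and 3 below. The mean was 0.02 ± 0.21 (SD, n = 4), with a 95% interval of -0.20 to 0.24 and a limma adjusted p of 0.942. Its probes had means of 0.09 ± 0.27 (probe 761) and -0.05 ± 0.20 (probe 808), so the sign depends on the probe. They also ranked the mice differently: mouse 2 was highest on probe 761, with 0.46, but had -0.03 on probe 808, where mouse 4 was highest with 0.22. With both probes averaged, Cubn stood above Lrp2 in 4 of 4 mice, by 0.22 ± 0.11 (SD, n = 4) in log2 ratio. On probe 761 alone, Lrp2 stood above Cubn in mouse 2, with 0.46 against 0.35.

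Amn, which carries cubilin to the surface, had -0.01, -0.05, 0.00 and -0.07 in mice 1 to 4, a mean of -0.03 ± 0.03 (SD, n = 4). Its values differed between the dye orientations. Amn was positive on 7 of 8 arrays with the mutant in Cy5, with a mean of 0.19, and on 1 of 8 with the mutant in Cy3, with a mean of -0.25. The orientations did not overlap in any mouse's mean: 0.32, 0.03, 0.21 and 0.20 for Cy5-labelled mutant RNA, and -0.34, -0.13, -0.21 and -0.34 for Cy3-labelled. The difference was 0.44 ± 0.21 (SD, n = 4 mice), with a limma adjusted p of 0.0229 for the dye term. It was the 1 member of 8 called for dye, where 8.4% of 15856 rows were, a share near that of all rows; at an unadjusted p under 0.05 it was also 1 of 8, where 29.9% were. The call was lost without mouse 1, without mouse 3 and without mouse 4. The smallest limma adjusted p of any member for the dye term was then 0.157, 0.0955 and 0.139. Without mouse 2 the call of Amn held (0.0086).

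Dab2, the clathrin adaptor of megalin, had -0.04, -0.19, 0.00 and 0.06 in mice 1 to 4, with no side shared by all. Its arrays ran from -0.39 to 0.36 with a median of -0.07. The mean was -0.04 ± 0.11 (SD, n = 4), and its 95% interval of -0.20 to 0.12 holds 0 (limma adjusted p = 0.828). Dab2 is also expressed outside the proximal tubule, in macrophages among other cells.

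**Figure D2:**
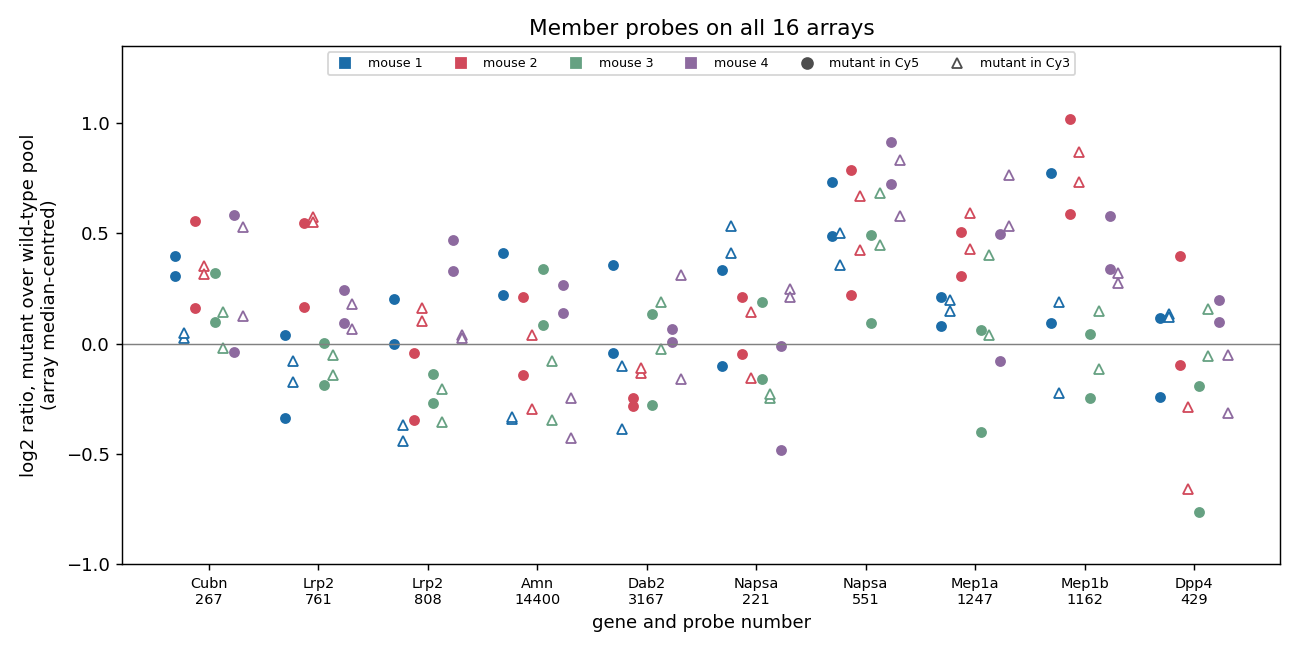
The median-centred log2 ratio on each array (vertical axis) is plotted for the 10 member probes (horizontal axis), coloured by mouse, with filled circles for the mutant in Cy5 and open triangles for the mutant in Cy3. Napsa probe 551 lies above 0 on all 16 arrays, whereas the circles and triangles of Amn lie mostly on opposite sides of 0.

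The endosomal protease napsin A gave the member probe with the smallest p. Probe 551 of Napsa had 0.52, 0.52, 0.43 and 0.76 in mice 1 to 4, and was positive on 16 of 16 arrays, from 0.10 to 0.92 with a median of 0.54. Its mean was 0.56 ± 0.14 (SD, n = 4), a ratio of 1.47, the same in both orientations (0.56 and 0.56). Tested probe by probe, its unadjusted p was 0.00032 and its limma adjusted p was 0.42. Probe 221, which the platform annotation assigns to the same Napsa transcript, did not show this. It had 0.30, 0.04, -0.11 and -0.01, with 8 of 16 arrays above 0 and a mean of 0.05 ± 0.17 (SD, n = 4). Probe 551 exceeded probe 221 in 4 of 4 mice and on 14 of 16 arrays, by 0.51 ± 0.22 (SD, n = 4; exact two-sided sign-flip permutation p = 0.125, the smallest that 4 mice can give). The sources used here do not say which part of the transcript each probe covers. Averaged over both probes, Napsa had 0.41, 0.28, 0.16 and 0.38 in mice 1 to 4 and a mean of 0.31 ± 0.11 (SD, n = 4), with a 95% interval of 0.14 to 0.47 (limma unadjusted p = 0.0038, adjusted p = 0.548).

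The meprins, which build the abundant metalloprotease of the mouse brush border, both had positive means. Mep1a had 0.16, 0.46, 0.03 and 0.43 in mice 1 to 4, all above 0, with 14 of 16 arrays positive. Its mean was 0.27 ± 0.21 (SD, n = 4), a ratio of 1.20, with a 95% interval of 0.04 to 0.49 (limma unadjusted p = 0.027, adjusted p = 0.548). In each of the 4 mice its value was lower with the mutant in Cy5 than in Cy3 (means 0.15 and 0.39).

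Mep1b had 0.21, 0.80, -0.04 and 0.38 in mice 1 to 4, so mouse 2 was highest and mouse 3 lay just below 0. Its mean of 0.34 ± 0.36 (SD, n = 4) was the highest of the members when read as mutant over pool (0.06 when read as Cy5 over Cy3, below Amn at 0.22), but its SD was as large as the mean, and its 95% interval ran from -0.0014 to 0.67 (limma adjusted p = 0.548). Without mouse 2 the mean was 0.18.

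Dpp4, the dipeptidyl peptidase, had 0.03, -0.16, -0.21 and -0.02 in mice 1 to 4. Single arrays spread widely, from -0.76 to 0.40, and 7 of 16 were positive. The mean was -0.09 ± 0.12 (SD, n = 4), with a 95% interval of -0.26 to 0.08 (limma adjusted p = 0.672).

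In order of mean ratio, read as mutant over pool, the members ran Mep1b, Napsa, Mep1a, Cubn, Lrp2, Amn, Dab2 and Dpp4. Of the 7 neighbouring pairs in that order, 6 differed by less than the SD of their difference, with the first gene higher in 2 of 4 mice. The exception was Cubn above the mean of the Lrp2 probes, given above with its limit on probe 761. Read as Cy5 over Cy3 the order is another one: Amn, Mep1b, Cubn, Dpp4, Lrp2, Dab2, Napsa and Mep1a.

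**Figure D3:**
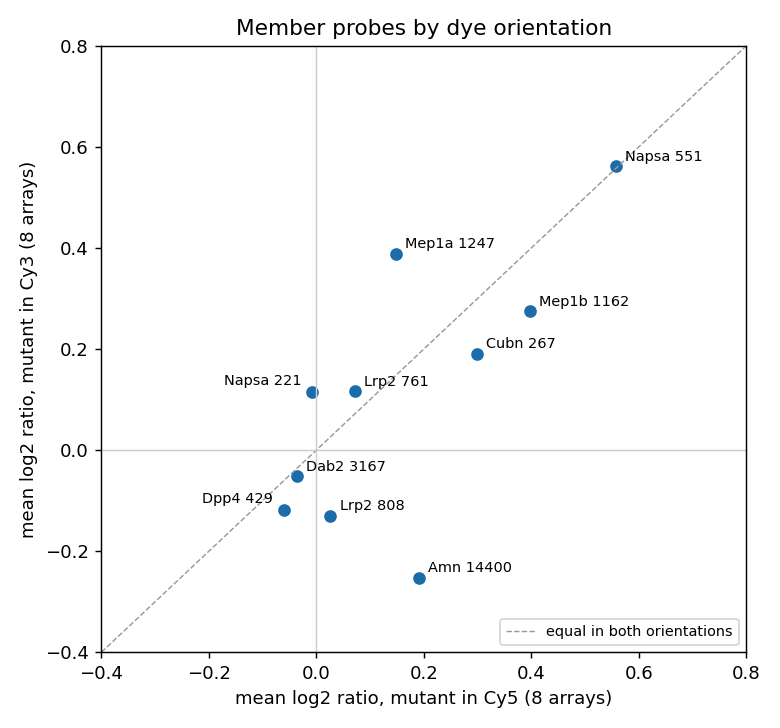
Each member probe is plotted by its mean log2 ratio over the 8 arrays with the mutant in Cy5 (horizontal axis) and the 8 with the mutant in Cy3 (vertical axis); the dashed line marks equal values. Napsa probe 551 sits on the line at 0.56, and Amn lies farthest from it, at 0.19 and -0.25.

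The 4 mice were also compared with each other, against the spread of their own arrays. After adjustment, limma's F-test called 0 of 8 members, where 0.189% of 15856 rows were called. At an unadjusted p under 0.05 there were 3 (Mep1b, 0.00254; Lrp2, 0.0142; Mep1a, 0.0477), where 11.2% of rows were. All 3 had their higher values in mice 2 and 4. The meprin beta values held on single arrays: those of mouse 2 ran from 0.59 to 1.02 and those of mouse 3 from -0.24 to 0.15, with no overlap. Cubn (limma F-test p = 0.526) and Napsa (p = 0.242) did not pass that threshold.

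The members' median was 0.10, 0.25, 0.00 and 0.24 in mice 1 to 4. Other proximal tubule transporters and enzymes (24 of 33 listed were measured) had a median of -0.08, 0.20, -0.01 and 0.19 in the same mice, with mice 2 and 4 again the higher ones, and 0.10 over the mice. Their part in the members' values was not tested. In that list 5 genes were higher and 2 lower at an unadjusted limma p under 0.05, where 5.83% and 3.21% of all rows were. Slc15a2, a peptide transporter, had 0.50 ± 0.25 (SD, n = 4) and Slc27a2, an acyl-CoA synthetase of peroxisomes, had 0.41 ± 0.23. Slc34a1, the main phosphate cotransporter of the proximal brush border, had -0.20 ± 0.09 and was negative in every mouse. The F-test between mice called 2 of these 24 genes, Miox and Slc16a9, named after their values were seen.

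Genes that serve the same uptake route were taken from lists, and none of them passed limma's adjusted test. Of 50 genes of endocytosis and recycling, 35 were measured, with a median of 0.05 and 25 positive, where 50.1% of all rows were positive. At an unadjusted limma p under 0.05, 3 were higher, where 5.83% of all rows were, and 0 lower, where 3.21% were. The same shares of all rows stand beside the counts of the lists below. These 3 were Lrpap1, the chaperone of megalin, with 0.20 ± 0.12 (SD, n = 4), Cltc, the clathrin heavy chain, with 0.32 ± 0.28, and Fcgrt, the neonatal Fc receptor that rescues albumin and IgG, with 0.24 ± 0.17. Each of these was positive in all 4 mice. The value with the mutant in Cy5 minus that in Cy3 was 0.25 for Lrpap1, 0.25 for Cltc and -0.30 for Fcgrt. Clcn5, the endosomal chloride-proton exchanger, and Ocrl, a phosphatase of the same compartment, had -0.04 and -0.09.

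The other brush border peptidases had a median of -0.04 over 9 measured of 17, with 3 positive (Tmprss2, Ace and Fap), and 0 had an unadjusted p under 0.05 in either direction. Tmprss2, a membrane serine protease, had 0.27 ± 0.30 (SD, n = 4), Dpep1, the renal dipeptidase, -0.14 ± 0.14, and Mme, neprilysin, -0.08 ± 0.08. The lysosomal proteases had a median of 0.05 over 11 measured of 12, 9 of them positive and 0 past an unadjusted p of 0.05. Ctsf had 0.14 ± 0.06, Ctsk -0.07 ± 0.08 and Ctsh 0.55 ± 0.65, with 1.17 in mouse 2 and -0.19 in mouse 4.

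Scaffold genes of the microvillus had a median of 0.06 over 11 measured of 16, with 8 positive. Ezr, ezrin, was the 1 member at an unadjusted p under 0.05, with 0.30 ± 0.20 (SD, n = 4) and positive in 4 of 4 mice. Slc9a3r2 had 0.18 ± 0.19, and Pdzk1, which anchors apical transporters, 0.08 ± 0.12. Reabsorbed ligands and vitamin-handling genes had a median of 0.05 over 18 measured of 24. Apoa1, apolipoprotein A-I and a cubilin ligand, had -0.22 ± 0.03, the same side in 4 of 4 mice (limma unadjusted p = 0.00638, adjusted p = 0.548). Apom, a megalin ligand, had 0.38 ± 0.37, and Rbp4, the plasma retinol carrier that megalin takes up, 0.33 ± 0.63, with 0.85 and 0.88 in mice 2 and 4 and -0.04 and -0.37 in mice 1 and 3. Both differed between the dye orientations: the value with the mutant in Cy5 minus that in Cy3 was -1.20 for Apom and -1.03 for Rbp4. That difference was also wide for Ctsh (-0.89) and Slc9a3r2 (-0.82).

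Markers of tubule injury had a median of 0.01 over 12 measured of 17, with 2 higher and 0 lower at an unadjusted p under 0.05. Markers of other kidney cells were few: 3 podocyte genes had a median of -0.01, 3 of the loop of Henle -0.15, 3 of the distal tubule 0.18, 4 of the collecting duct 0.08, 9 of endothelium 0.08, 6 of stroma and smooth muscle -0.16 and 8 of immune cells -0.04. Among them 8 genes had an unadjusted limma p under 0.05, a threshold at which 5.83% of all rows were higher and 3.21% lower. Higher were Slc12a1, the salt cotransporter of the thick ascending limb (0.56 ± 0.24, SD, n = 4), S100g, a calcium-binding protein of the distal tubule (0.65 ± 0.39), Wnk4, a kinase there (0.18 ± 0.13), Aqp2, the collecting duct water channel (0.46 ± 0.25), Cdh5 of endothelium (0.34 ± 0.30) and C1qb of macrophages (0.27 ± 0.17). All 3 measured genes of the distal tubule had positive means, but the other lists of cell markers held both signs. In the loop of Henle Umod had -0.15 ± 0.20 and Egf, measured in 3 mice, -0.30 ± 1.20. In the collecting duct 2 of 4 genes were negative, Foxi1 (-0.26 ± 0.61) and Slc4a1 (-0.04 ± 0.11). Of 9 endothelial genes 3 were negative, and of 8 immune genes 6, among them C1qc (-0.12 ± 0.07) and H2-Ab1 (-0.14 ± 0.08). Col3a1, a stromal collagen, was lower (-0.32 ± 0.15), as was Tek of endothelium, measured in 3 mice (-0.87 ± 0.88). The value with the mutant in Cy5 minus that in Cy3 was 0.48 for S100g, 0.48 for C1qb and -0.56 for H2-Ab1. Slc12a1, S100g and Aqp2 were highest in mouse 2, as was Mep1b. The part of these genes in the members' values was not tested.

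**Figure D4:**
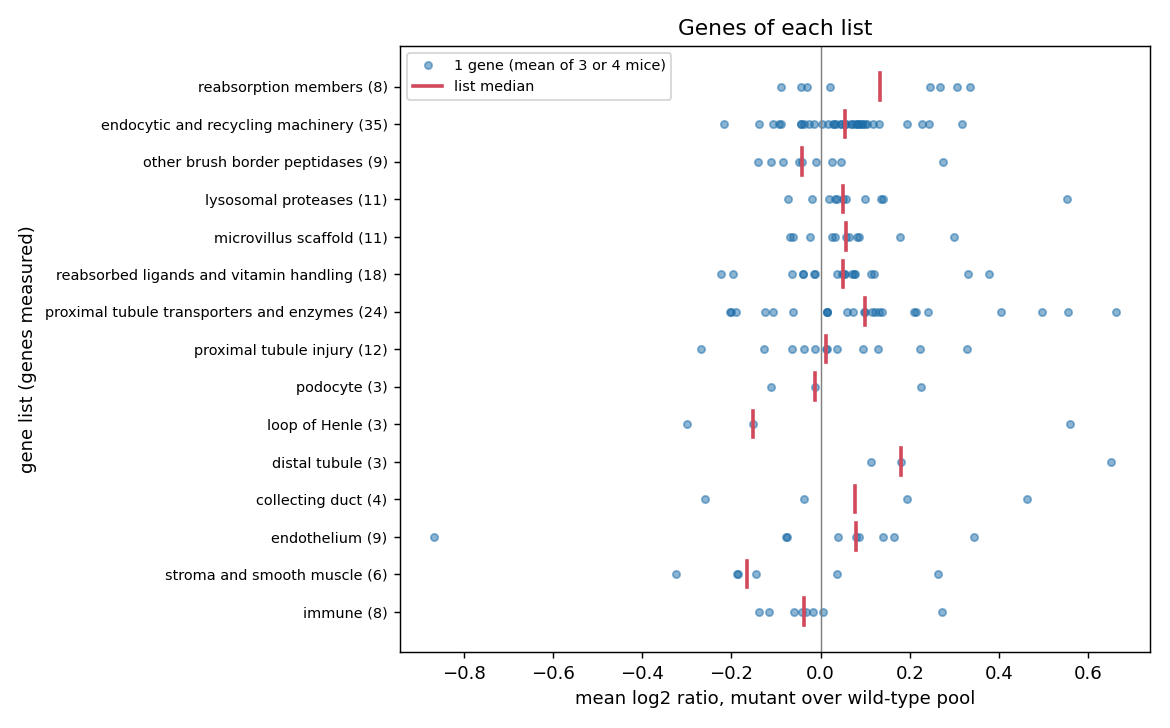
Each point is the mean log2 ratio of 1 gene over 3 or 4 mice (horizontal axis), by gene list (vertical axis, with the number of genes measured), and the red bar is the list median. The 8 members fall into 4 genes above 0.2 and 4 near 0, with a median of 0.13. The median was 0.10 for proximal tubule transporters and enzymes and 0.18 for the distal tubule. It was 0.05 for the endocytic machinery and -0.04 for the other peptidases.

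Over the 16 arrays, after the mean of each dye orientation was taken away, members differed in how they followed the mean of the others. Pearson's r was 0.78 for Mep1a, 0.68 for Lrp2, 0.55 for Mep1b and 0.50 for Cubn, against 0.20 for Napsa and -0.16, -0.18 and -0.20 for Dpp4, Amn and Dab2. The 5 named genes most like the mean of all 8 members, of 9052 ranked, were Akr1c21 (r = 0.89), Nat8f1 (0.89), Dhrs1 (0.87), Fam83g (0.86) and Fermt3 (0.86). Akr1c21 had 0.35, 0.70, 0.03 and 0.43 in mice 1 to 4, again lowest in mouse 3 and highest in mouse 2. These are descriptions: the arrays come from 4 mice and share the pool.

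The targeted gene and the arrays bear on how the ratios are read. In mice 1 and 2 probe 4590 of Hsd17b4 lay between -2.08 and -1.10 on all 8 arrays, in both dye orientations. On every array the labels put the mutant first. The lowest Pearson correlation over all probes between 2 mice hybridised the same way was 0.0083 (lowest Spearman -0.017, median Spearman 0.18). These correlations are the same under either reading, so they cannot tell mutant over pool from Cy5 over Cy3. If the values were Cy5 over Cy3 instead, the ratio of Napsa would be -0.03, that of Cubn 0.05, that of Mep1a -0.12 and that of Amn 0.22, and the equal values of Napsa probe 551 in both orientations would be a difference between dyes. The deposited column medians lay between -0.15 and 0.10, and each array held 19737 to 20228 values, none missing for the member probes.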

How the data were processed

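The deposited values are log2 ratios of the 2 channels of each array, made by the authors; total RNA was labelled indirectly with Cy3 or Cy5, per the labels' protocols. The sources used here state no scanner, background correction, normalisation, log base or direction; the log2 base was inferred from the values. Titles and source names of mouse 1 carry different animal numbers but 1 mouse identifier, which was used.

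Values over 10 in absolute size were treated as missing, and array medians were set to 0. Each mouse was given the average of its 2 dye orientation means, for probes with both in at least 3 mice (20187 of 20355). Gene identifiers were used to update platform symbols from RefSeq (GRCm38.p6) (13994 of 14030), and probes of a gene were averaged, which gave 16140 rows across all genes and unnamed probes. Limma 3.58.1 (lmFit and eBayes, two-sided, R 4.3.3) tested the mean against 0, and, on 16 arrays, differences between mice and the dye term. P-values were adjusted by the Benjamini-Hochberg method. Intervals are 95%, unadjusted. The pool is 1 control sample, so its own spread is left out. In the test against 0 the 4 mice and the 1 pool limit the precision, since the arrays of a mouse give 1 value. In the tests on 16 arrays the number of arrays limits it.

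The members, lists and alternatives were chosen with earlier results of these data known. The text names every member and, of each list of the uptake route or of proximal tubule transporters, the 3 genes with the smallest p. Clcn5 and Ocrl were added after their values were seen. Of injury and cell type markers the text gives counts and medians, and names those with an unadjusted p under 0.05 outside the injury list. Umod, Egf, Foxi1, Slc4a1, C1qc and H2-Ab1 are also named, as genes of those lists with a negative mean. The scripts were tested on simulated data.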

Additional observations from a re-analysis of the deposited data

How the results depend on the processing

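No member was called against the pool in 19 of 20 alternatives; a random block for the mouse (duplicateCorrelation) gave 2. Leaving out each mouse called 0 members, with a median of the members between 0.09 and 0.18. That median was above 0 in all 17 alternatives run, but 0.07 with each probe on its own and 0.03 with values read as Cy5 over Cy3. Between mice 0 members were called in all 12 alternatives. For the dye term 1 was called in 8 of 12 alternatives, 2 with values read as Cy5 over Cy3, and 0 to 1 when 1 mouse was left out. Over all rows, 30 were called between mice, against 2 to 51 in the alternatives, and 1332 for dye, against 44 to 2740. Against the pool, where 0 were called, there were 221 with the random block, 12 with values read as Cy5 over Cy3, 3 on Cy5 arrays alone and 1 on Cy3 arrays alone.

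Cubn and Mep1b kept a positive mean in all 20 alternatives. Read as Cy5 over Cy3, the mean changed sign for Napsa (-0.032), Mep1a (-0.12), Dpp4 (0.030), Dab2 (0.0081) and Amn (0.22). Amn also changed sign on Cy5 arrays alone (0.19) and in repeat 1 alone (0.0041). Lrp2 changed sign on the second probe (-0.052) and on Cy3 arrays alone (-0.0068), and ran from -0.043 to 0.084 when 1 mouse was left out; Dab2 ran from -0.077 to 0.0058. The cause was not tested. No paired analysis was possible because all mice form 1 group against 1 pool. Without intensities, signal over background is unknown, and with 4 mice a missed threshold does not show that a gene was unchanged.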
